A study of Oryza sativa Indica Group with 226 samples.

Results

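The 7 rice genes CML1, CML4, CML8, CML9, CML11, CML27 and CML29, which encode calmodulin-like calcium sensors, were followed across 226 Affymetrix Rice Genome arrays. A probe set was taken as a member where the platform annotation or the reference gene table gave its gene one of these names as a symbol or a synonym. This gave 10 probe sets of the 57381 on the array. CML4 has 3 probe sets, CML27 has 2 and the other genes have 1 each, and 8 of the 10 averaged 5 or more (log2) over all arrays, the minimum for a probe set to be tested. The arrays measured RNA from untreated shoots, taken 72 h after germination from seedlings kept in the dark at 25 °C, of the indica varieties Minghui 63 and Zhenshan 97 (3 arrays each) and of 110 recombinant inbred lines (RILs) from Minghui 63 and Zhenshan 97. Each line had a biological replicate 2 and a biological replicate 1 array, from separate seedling samples. An inbred line carries, at most places in its genome, the copy of 1 parent. How many seedlings made up a sample is not given in the sources used here.

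Calmodulin-like proteins bind calcium ions through EF-hand motifs. When the calcium level in the cell rises after a stimulus, they change shape and bind target proteins, and they have no known enzyme activity of their own. Plants hold many of them beside the few true calmodulins. They stand beside other calcium decoders: CBL sensors, which act through CIPK protein kinases, and calcium-dependent protein kinases, which carry EF hands and a kinase domain in 1 protein. CML1 also goes by the synonym OsCAM61, a calmodulin relative of rice with an extended C-terminus that can carry a lipid anchor. Rice CML4 has been linked to drought tolerance. The sensors are spread over the genome: CML1 and CML11 lie on chromosome 1, CML4 and CML27 on chromosome 3, CML9 on chromosome 5, CML29 on chromosome 6 and CML8 on chromosome 10. In the gene order of the reference assembly, CML9 directly neighbours the calmodulin gene CAM2.

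The genes were picked from earlier results on these arrays, by their difference between the parents, their repeatable variation over the lines and their shift between replicate numbers. Their values in those comparisons are therefore given as a description, with no test. All values are on the log2 scale of the deposited array values, where a difference of 1 is a change by a factor of 2, and levels of different probe sets cannot be set against each other. Because the samples were whole shoots, a lower value can mean fewer cells of a type or less RNA per cell, and these cannot be told apart.

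The arrays had medians between 4.77 and 5.07. All 7 shoot markers, named on 6 probe sets because CAB2R and LHCP share 1, were detected in the lines, with medians from 8.32 (CHLH) to 12.82 (CAB2R), and 12.13 for PORA, the protochlorophyllide reductase of dark-grown leaves. Of 7 root markers, 5 were annotated: Lsi2, IRT1 and PHT1;2 had medians of 3.50, 4.79 and 5.05, at or near the level of empty control probe sets, but NAS1 was at 7.67 and Lsi1 at 8.45. Single line arrays varied widely: IRT1 reached 8.75, and NAS1 ran from 2.19 to 12.88. The part of root RNA in the results was not tested. Of the replicate 1 arrays, 11 stood apart from the rest by a low correlation with them, as did 1 replicate 2 array, of RIL139, whose replicate 1 array was among the 11. Over all tested probe sets, 39 of the 110 replicate 1 arrays resembled the replicate 2 array of another line more than that of their own line. Over 528 transcripts that segregate between the lines, 105 of 110 matched their own line best. Among the parents, the deviations of same-numbered arrays were negatively correlated (-0.31, -0.07 and -0.39 for replicates 1, 2 and 3), and the replicate 3 arrays resembled their own parent least (mean r of 0.967 in Minghui 63 and 0.963 in Zhenshan 97, against 0.973 to 0.981 for the other 4 arrays).

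Between the parents, CML1 and CML8 were lower in Minghui 63, by nearly 4-fold each, and CML9 and CML11 were higher in Minghui 63, by nearly 2-fold each. CML1 measured 6.77, 6.66 and 7.70 in the 3 Minghui 63 arrays, against 8.92, 9.18 and 8.63 in the 3 Zhenshan 97 arrays. Minghui 63 replicate 3 was the highest of its parent, yet all Minghui 63 values lay below all Zhenshan 97 values. The means were 7.04 ± 0.57 in Minghui 63 and 8.91 ± 0.28 in Zhenshan 97 (SD, n = 3 each), a difference of -1.87 (SE 0.30) or 3.65-fold. Of all tested probe sets, 2.12% differed by as much in either direction.

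CML8 measured 5.95, 6.08 and 6.04 in Minghui 63, against 8.22, 7.46 and 8.20 in Zhenshan 97. The Minghui 63 arrays lay within 0.13 of each other, and the Zhenshan 97 arrays lay at least 1 unit above them. The means were 6.02 ± 0.067 and 7.96 ± 0.43, a difference of -1.94 (SE 0.22) or 3.83-fold, which 1.96% of tested probe sets equalled or exceeded in either direction.

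CML9 ran the other way. It measured 8.06, 8.31 and 7.94 in Minghui 63, against 6.86, 7.12 and 7.55 in Zhenshan 97, with no overlap. Its difference was 0.93 (SE 0.21), or 1.90-fold. CML11 measured 8.54, 8.66 and 8.54 in Minghui 63, against 7.48, 7.95 and 7.74 in Zhenshan 97, again without overlap. Its difference was 0.86 (SE 0.16), or 1.81-fold. CML9 and CML11 were each higher in all 3 Minghui 63 arrays than in any Zhenshan 97 array. Without the replicate 3 arrays of both parents, the differences of CML1, CML8, CML9 and CML11 were -2.3, -1.8, 1.2 and 0.89.

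The remaining genes differed less. Both bright probe sets of CML4 were lower in Minghui 63 without overlap. The first measured 8.54, 8.53 and 8.55 in Minghui 63, against 8.85, 8.75 and 9.27 in Zhenshan 97, and the second measured 8.40, 8.28 and 8.24 against 8.79, 8.60 and 9.37. Their differences were -0.42 (SE 0.17) and -0.61 (SE 0.21), of which Zhenshan 97 replicate 3 made a large part: without the replicate 3 arrays of both parents they were -0.27 and -0.36. The first of these probe sets is of a type that can match transcripts of more than 1 gene. The third probe set of CML4 averaged 3.13 and the second of CML27 averaged 3.22, both inside the range of the empty control probe sets (2.40 to 4.63), and carry no information on these genes.

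CML27 measured 11.48, 10.88 and 9.78 in Minghui 63, against 9.57, 10.13 and 10.70 in Zhenshan 97. The parents overlapped through their replicate 3 arrays, the lowest of Minghui 63 and the highest of Zhenshan 97. The difference was 0.58 (SE 0.46) over all arrays and 1.33 without both replicate 3 arrays, and leaving out 1 array at a time gave 0.20 to 1.05. CML29 measured 8.90, 9.31 and 9.23 in Minghui 63, against 9.28, 10.09 and 9.52 in Zhenshan 97. Only Zhenshan 97 replicate 1 lay within the Minghui 63 values. The difference was -0.48 (SE 0.24), and -0.25 without Zhenshan 97 replicate 2.

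In all, 5 of the 7 genes had parental values that did not overlap, CML9 and CML11 higher and CML1, CML4 and CML8 lower in Minghui 63. Among all 27735 tested probe sets, 32.3% did not overlap, 19.8% higher and 12.4% lower in Minghui 63, and 10.5% passed an adjusted p of 0.05 in limma (4.93% higher and 5.59% lower). The genes were picked on this contrast, so nothing is read from their count.

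**Figure D1:**
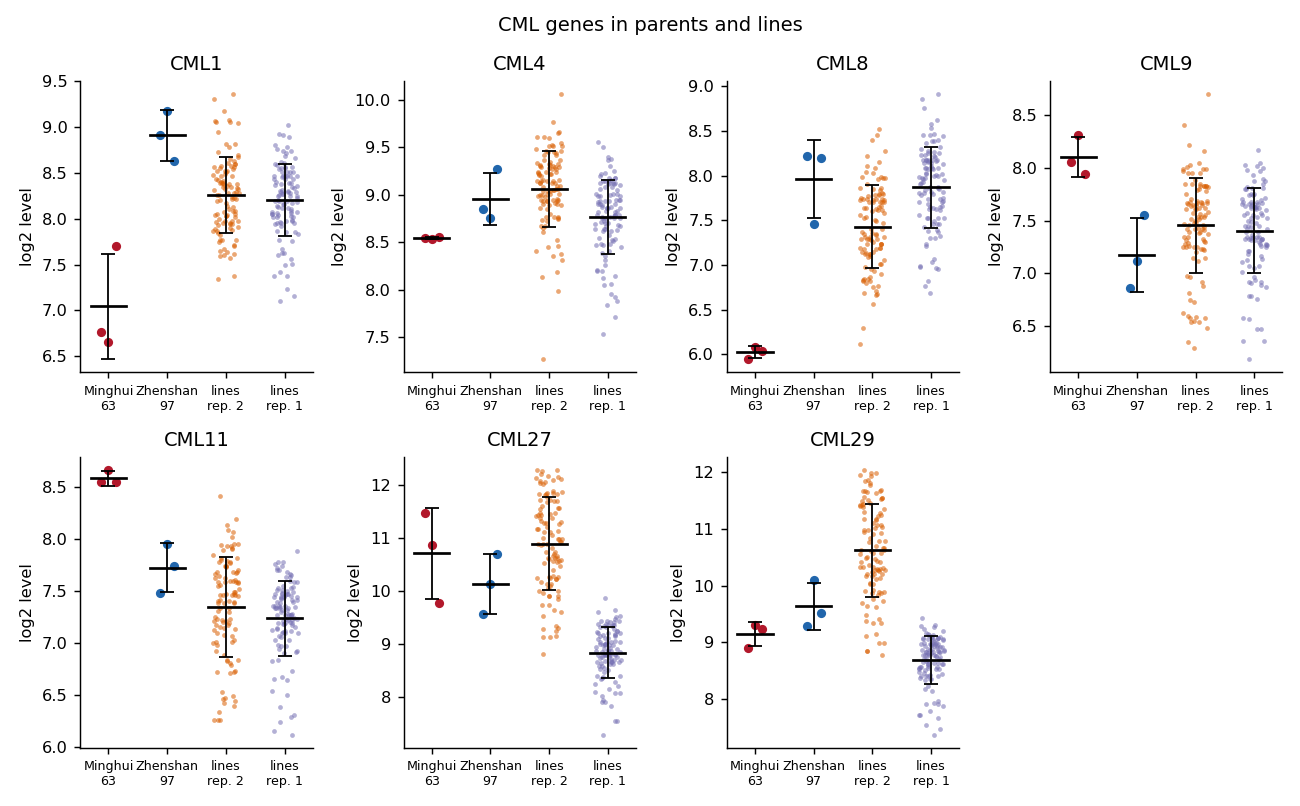
Log2 level (vertical axis) of the brightest probe set of each of the 7 genes in the arrays of Minghui 63, Zhenshan 97, the lines in replicate 2 and the lines in replicate 1; points are arrays (3, 3, 110 and 110), and lines with bars are means with SD. Minghui 63 lies below Zhenshan 97 for CML1 and CML8 and above it for CML9 and CML11, and the replicate 2 arrays of the lines lie about 2 units above the replicate 1 arrays for CML27 and CML29.

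Over the lines, the level of most of these genes was only partly a property of the line. Repeatability, the share of the variance between arrays of a replicate number that the 2 arrays of a line had in common, was highest for CML8 (0.33), CML1 (0.30) and CML4 (0.28, and 0.25 in its second probe set). It was 0.19 for CML27, 0.09 for CML29, 0.07 for CML11 and 0.01 for CML9. The median of all tested probe sets was 0.06, and 16.0% of them varied between lines at an adjusted p under 0.05 in limma's F test. A repeatability as high as that of CML8 was reached by 9.18% of tested probe sets, as that of CML27 by 19.9%, and as that of CML9 by 69.0%. The genes were picked on this measure too. CML9 and CML11, which separated the parents, thus had repeatabilities close to or under the median of all transcripts over the 110 lines. Without the lines with an array standing apart, repeatability was 0.40 for CML1, 0.18 for CML11 and 0.14 for CML9, all higher than before. It was lower for CML27 (0.14) and CML29 (0.04). Without the 39 lines whose arrays matched another line better, it was 0.21 for CML9, 0.17 for CML11 and 0.16 for CML27. The order of these genes thus depended on the lines used.

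CML1 ran from 7.34 to 9.36 in replicate 2 (median 8.27) and from 7.10 to 9.02 in replicate 1 (median 8.25). Its line means lay between the parental means in 106 of 110 lines and above both in 4, and 23 were nearer to Minghui 63. The highest line, RIL013, was at 9.18 in replicate 2 and 8.91 in replicate 1, and the lowest, RIL139, at 7.59 and 7.56. Lines were ranked here by the mean of both replicates, and both arrays of RIL139 stood apart. CML8 ran from 6.12 to 8.52 in replicate 2 (median 7.40) and from 6.69 to 8.91 in replicate 1 (median 7.93). Only 5 of its line means were nearer to Minghui 63 than to Zhenshan 97; 90 lay between the parents and 20 above both. Its highest line, RIL080, was at 8.15 in replicate 2 and 8.86 in replicate 1, and its lowest, RIL185, at 6.69 in each.

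Of the 7 genes, CML11 had line means furthest from the midpoint of its parents. It ran from 6.26 to 8.41 in replicate 2 (median 7.43) and from 6.12 to 7.88 in replicate 1 (median 7.29). The means of 103 of 110 lines lay below both parental means and 7 between them, and none was nearer to Minghui 63. The mean of the lines minus the midpoint of the parents was -0.86. The share of all probe sets with lines so far outside the parents was not computed. Whether line and parental arrays differ as sets was not tested. Values outside the parents, here and for the other genes, are therefore not read as inheritance. CML9 ran from 6.29 to 8.70 in replicate 2 (median 7.52) and from 6.19 to 8.17 in replicate 1 (median 7.45). Its line means lay between the parents in 86 lines, below both in 23 and above both in 1. CML4 ran from 7.27 to 10.06 in replicate 2 (median 9.11) and from 7.53 to 9.56 in replicate 1 (median 8.82), and 54 of its line means were above both parents. The low end of CML4 was RIL139, the line whose arrays both stood apart.

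**Figure D2:**
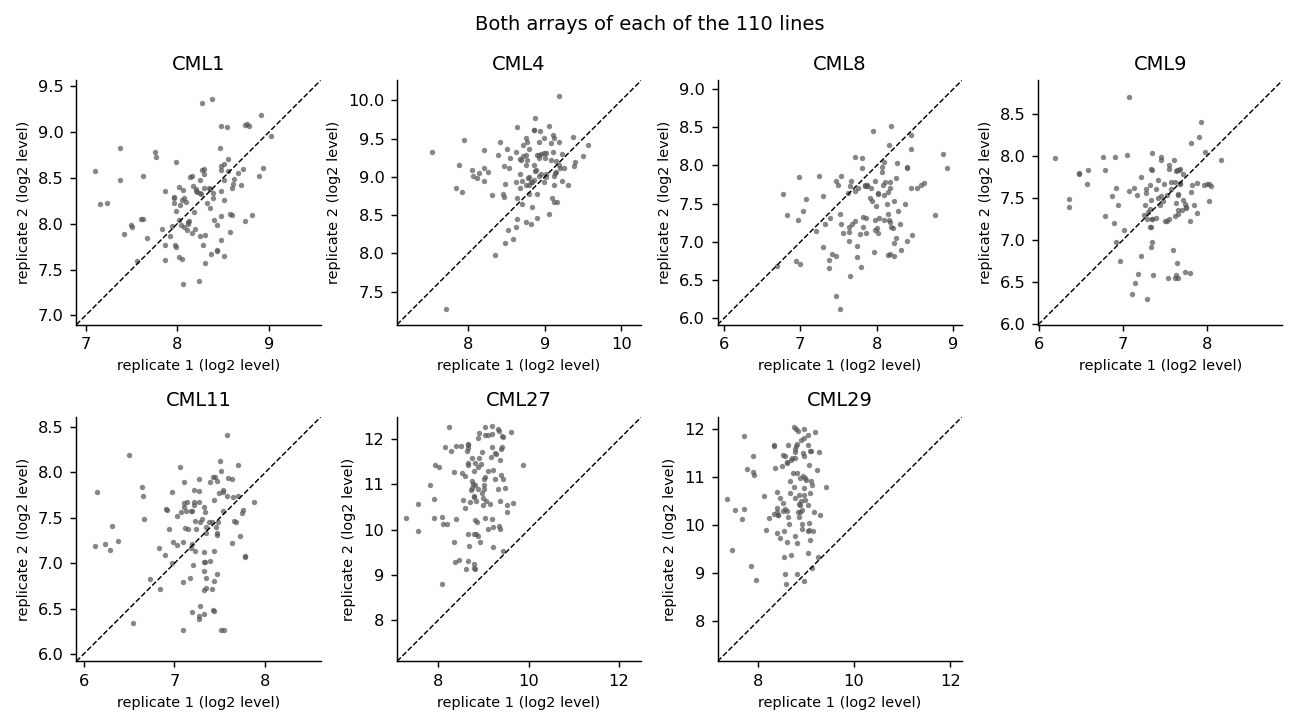
Level of the brightest probe set of each gene in replicate 2 (vertical axis, log2) against replicate 1 (horizontal axis, log2); each point is 1 of 110 lines and the dashed line marks equal values. The clouds of CML27 and CML29 lie above the line, by 2.06 and 1.94 on average, and those of CML1, CML9 and CML11 lie around it.

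CML27 and CML29 were higher in the replicate 2 arrays than in the replicate 1 arrays of the same lines. CML27 ran from 8.81 to 12.29 in replicate 2 (median 10.96) and from 7.29 to 9.87 in replicate 1 (median 8.86). It was higher in replicate 2 in all 110 lines, by 0.09 to 4.02, and by at least 2 in 61 of them. The mean shift was 2.06 (SD 0.90, SE 0.086, n = 110 lines), or 4.18-fold. CML29 ran from 8.78 to 12.04 in replicate 2 (median 10.59) and from 7.37 to 9.43 in replicate 1 (median 8.78). It was higher in replicate 2 in 108 lines and lower in 2, with a mean shift of 1.94 (SD 0.89, SE 0.084), or 3.85-fold, and a shift of at least 2 in 52 lines. The spread between lines was also wider in replicate 2, with an SD of 0.87 against 0.48 in replicate 1 for CML27 and 0.83 against 0.42 for CML29.

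Shifts between replicate numbers were general on these arrays. At an adjusted p under 0.05 in limma, 92.2% of tested probe sets differed, 43.7% higher and 48.5% lower in replicate 2, with a median shift of -0.05. A shift of at least 1 was less common, at 4.96% higher and 11.1% lower. Shifts as high as those of CML27 and CML29 were reached by 0.252% and 0.361% of tested probe sets. Both genes were picked on this contrast. Replicate number is a label on the arrays, and what else differed between the replicates is not given in the sources used here, so its part in the shift was not tested.

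The other members shifted less. CML8 was lower in replicate 2 in 89 of 110 lines, with a mean shift of -0.44 (SD 0.53), and CML4 was higher by 0.30 and 0.46 in its bright probe sets. CML1, CML9 and CML11 shifted by 0.06, 0.05 and 0.11 (SE 0.046, 0.057 and 0.055, n = 110 lines). Centring each array on its own median changed every shift by -0.13 and turned these small values to -0.075, -0.084 and -0.020, with CML27 then at 1.93 and CML29 at 1.81. The parents showed no common shift of CML27: replicate 2 minus replicate 1 was -0.60 in Minghui 63 and 0.56 in Zhenshan 97. For CML29 it was 0.41 and 0.81.

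The 11 replicate 1 arrays that stood apart were low for every member. CML29 had a median of 7.78 in them and 8.82 in the other 99 replicate 1 arrays, CML27 8.08 and 8.90, CML1 7.42 and 8.27, and CML9 6.58 and 7.53. The shift of CML27 had a median of 2.76 in those lines and 2.12 in the others, and that of CML29 2.78 and 1.86, so the shift was present with and without them. For CML1 the median shift was 0.99 in those lines and -0.05 in the others, for CML9 1.13 and -0.02, and for CML11 1.07 and 0.08.

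Whether the genes varied together over the lines was not used in picking them and was tested within each replicate number. Pearson's r was computed for the 21 pairs in replicate 2 and in replicate 1, each with a two-sided permutation test of 100000 resamples and Benjamini-Hochberg adjustment over the 42 values. In replicate 2, 11 pairs passed an adjusted p of 0.05, and in replicate 1, 20 pairs, of which 7 passed in both with the same sign. How many pairs of other probe sets would pass was not computed. Many probe sets followed a common axis of the arrays (below), so the counts are not read as particular to these genes. CML27 and CML29 had the highest r in replicate 2, at 0.89 (rho 0.88), and 0.53 in replicate 1 (rho 0.36). The permutation p was 1e-05 in both, the smallest that 100000 resamples can give (adjusted 1.91e-05). CML9 and CML11 had an r of 0.62 in replicate 2 and 0.77 in replicate 1 (rho 0.55 and 0.65, adjusted p 1.91e-05 for each r). CML4 correlated with CML1 (0.39 and 0.65), CML9 (0.38 and 0.65), CML11 (0.38 and 0.67) and CML8 (0.28 and 0.50), and CML1 with CML9 (0.37 and 0.64), each given as replicate 2 and replicate 1, with an adjusted p of at most 0.00454. Leaving out the 2 lines farthest from the median of the first gene kept r of these 7 pairs between 0.30 and 0.88 in replicate 2 and between 0.46 and 0.73 in replicate 1. The CML4 values are of its first probe set, of the type that can match more than 1 gene. With its second bright probe set, r in replicate 2 was 0.18 with CML1, 0.20 with CML9 and 0.02 with CML11. None of these passed (adjusted permutation p = 0.0839, 0.0599 and 0.804), while CML4 with CML8 passed in both replicate numbers.

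Another 3 pairs passed in both replicate numbers with opposite signs. CML11 and CML29 had an r of -0.46 in replicate 2 and 0.73 in replicate 1, CML11 and CML27 of -0.38 and 0.63, and CML8 and CML29 of -0.31 and 0.44. In replicate 1, r was positive for every pair, while in replicate 2 it was below 0 for each of CML27 and CML29 with each of the other 5 genes, from -0.04 to -0.46. With Spearman's rho, 8 pairs passed in both replicate numbers with the same sign. Without the 39 lines whose arrays matched another line better, 5 of the 7 pairs did. CML27 and CML29 then had an r of 0.86 in replicate 2 and 0.12 in replicate 1 (adjusted permutation p = 0.387 in replicate 1), and CML4 and CML8 an r of 0.21 in replicate 2 (adjusted permutation p = 0.124). Without the lines with an array standing apart, r of CML27 and CML29 in replicate 1 was 0.29 (adjusted permutation p = 0.00554).

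Little co-variation was seen between the separate seedling samples of a line, where it could hardly show. The r of a gene with itself between the replicate numbers was low, from 0.01 for CML9 to 0.33 for CML8. It was 0.08 for CML11, 0.11 for CML29 and 0.23 for CML27. A low r between 2 such genes is thus largely given, and nothing is read from it. With 1 gene read in replicate 1 and the other in replicate 2 of the same line, r lay between -0.11 and 0.13 over the 42 combinations of different genes. For CML27 and CML29 it was 0.05 and 0.12. The per-line shifts of CML27 and CML29 had an r of 0.86, and those of CML9 and CML11 of 0.76.

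The main axis of difference among the arrays was taken as the first principal component of all tested probe sets, computed within each replicate number. CML27 and CML29 followed it in both replicate numbers, and the other 5 genes did so in replicate 1. It held 32.6% of the variance in replicate 2 and 21.2% in replicate 1, and its sign was set by CML29. In replicate 2, r with the axis was 0.89 for CML29, 0.86 for CML27, -0.49 for CML11, -0.33 for CML8 and -0.16 to -0.23 for CML1, CML4 and CML9. In replicate 1 it was 0.86 for CML29, 0.67 for CML27 and 0.52 to 0.81 for the other 5. Across all tested probe sets the median absolute r with the axis was 0.42 in replicate 2 and 0.45 in replicate 1. In replicate 2, 4.28% had one as large as CML29 and 6.32% one as large as CML27. For replicate 1 these shares were 8.09% and 29.9%, so following the axis there was not particular to CML27. In replicate 2, CML1, CML4, CML8 and CML9 lay under that median. With the axis taken out of each gene, 2 pairs passed in both replicate numbers. These were CML9 with CML11 (0.62 in replicate 2 and 0.36 in replicate 1, adjusted p 0.00021 and 0.00119 by permutation) and CML8 with CML27 (-0.35 and -0.31, adjusted p 0.00119 and 0.0047). CML27 and CML29 then had an r of 0.53 in replicate 2 and -0.10 in replicate 1. What the axis stands for was not tested.

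**Figure D3:**
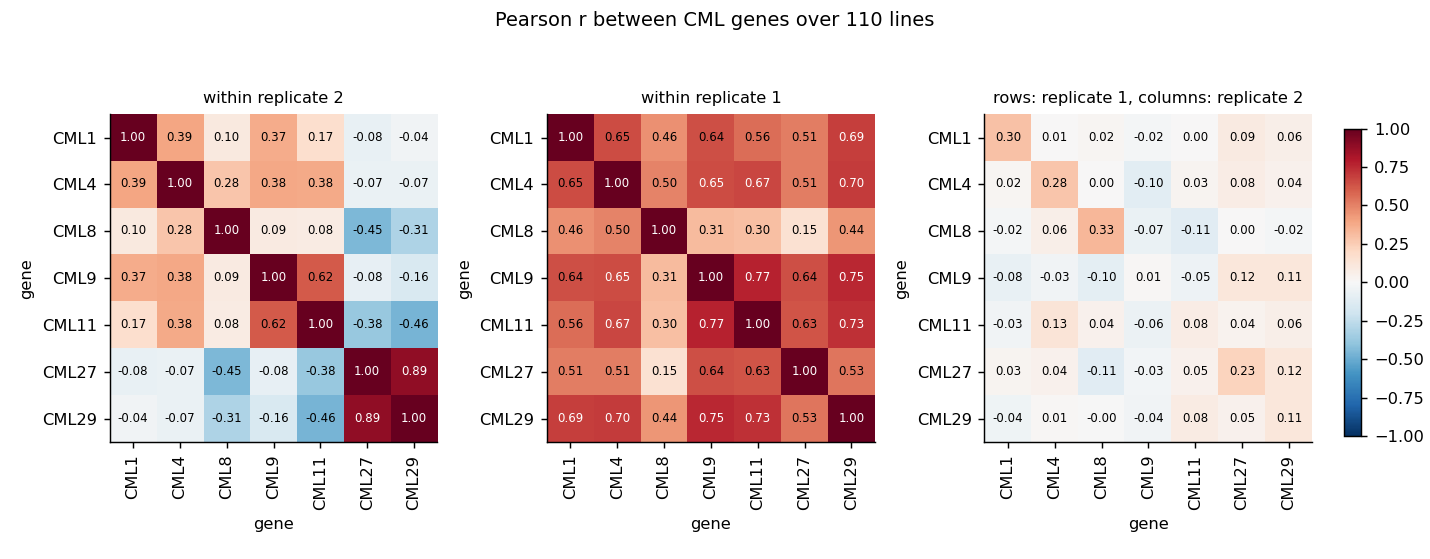
Pearson r (colour and number) between the 7 genes over 110 lines, within replicate 2, within replicate 1, and with the row gene in replicate 1 and the column gene in replicate 2 of the same lines. Within replicate 2, CML27 and CML29 reach 0.89 and are negatively related to CML8 and CML11; between replicate numbers, values off the diagonal lie between -0.11 and 0.13.

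The lines inherit blocks of chromosome from either parent. A transcript that differs strongly between the parents and repeats well within lines was therefore taken as a marker of a parental copy. Whether it is governed from its own region or from elsewhere was not tested. Its position need not be that of the copy it follows. There were 249 such marker transcripts (parental difference of at least 1 at an adjusted p under 0.05 in limma, and a repeatability of at least 0.7). For each gene, the marker with the largest absolute r in replicate 1 was tested in replicate 2, by permutation with adjustment over the 7 genes. It passed for CML1, CML8, CML27 and CML4, and not for CML9, CML11 and CML29. Those that passed were the genes of highest repeatability over all 110 lines (0.19 to 0.33, against 0.01 to 0.09 for the others). Repeatability was used in picking the genes, and the marker had to repeat between the same replicates, so the test is not independent of that choice.

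For CML1, the marker was TF1, which also lies on chromosome 1, 120 genes away. Its r with CML1 was 0.53 in replicate 2 (rho 0.48, adjusted permutation p = 3.5e-05) and 0.61 in replicate 1, and 0.52 in replicate 2 without the 2 farthest lines. TF1 was lower in Minghui 63 (difference -2.16), the parent in which CML1 was lower. Of the 10 markers most strongly related to CML1 in both replicate numbers, ranked by the smaller r, 6 lay on chromosome 1, between 120 and 305 genes from CML1; chromosome 1 held 36 of the 249 markers. Of these 6, the 5 that were lower in Minghui 63 correlated positively with CML1, and the 1 that was higher, by 2.17, correlated negatively (-0.41 in replicate 2 and -0.39 in replicate 1). This sign was not particular to chromosome 1. The rest of the 10, on chromosomes 3 and 9, were lower in Minghui 63 and correlated positively too. All 10 markers most strongly related to CML8 also ran in its parental direction, though none lay on its chromosome. The marker chosen for CML1 lay on chromosome 1 and passed in each of the 8 alternative settings run.

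In replicate 1, the marker most strongly related to CML27 was the gene next to it on chromosome 3 (gene ID 4332733), with an r of 0.36 in replicate 2 (rho 0.30, adjusted permutation p = 0.000373) and 0.66 in replicate 1. This neighbour was lower in Minghui 63 (difference -1.35), while CML27 was 0.58 higher there with overlapping values, so the relation over the lines ran against the direction of the parental means. Whether probes of these neighbours share sequence was not tested. By the smaller r of both replicate numbers the small heat shock gene HSP18.1, also on chromosome 3 and 429 genes away, ranked first for CML27, at 0.41 in replicate 2 and 0.63 in replicate 1. With the marker chosen in replicate 2 and tested in replicate 1, a chromosome 10 transcript was picked for CML27 and did not pass (r 0.10, adjusted permutation p = 0.427).

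For CML8, on chromosome 10, the marker lay on chromosome 11 (gene ID 4350270), with an r of 0.44 in replicate 2 (rho 0.46, adjusted permutation p = 3.5e-05) and 0.49 in replicate 1. None of the 10 markers most strongly related to CML8 lay on chromosome 10, which held 8 of the 249, and 5 lay on chromosome 5. The nearest marker, 180 genes from CML8, had an r of 0.18 in replicate 2 and 0.08 in replicate 1. The call for CML8 was lost with the main axis taken out, when another marker was picked (r 0.03, adjusted permutation p = 0.844), and without the 39 lines whose arrays matched another line better (r -0.23 with another chromosome 11 marker, adjusted permutation p = 0.0747). For CML4, on chromosome 3, the marker lay on chromosome 1 (gene ID 4324646), with an r of 0.33 in replicate 2 (rho 0.30, adjusted permutation p = 0.000805) and 0.57 in replicate 1. Chosen in replicate 2 instead, the marker of CML4 was another and did not pass (r 0.05, adjusted permutation p = 0.581). The markers of CML9 and CML11, both HSP18.1, had an r of 0.16 and 0.12 in replicate 2 (adjusted permutation p = 0.135 and 0.251). That of CML29, on chromosome 7 (gene ID 4343177), had an r of -0.06 (adjusted permutation p = 0.549). These calls changed with the setting. CML29 passed in 4 of the 8 alternatives, with an r of 0.22 to 0.43 and an adjusted permutation p of at most 0.0302. With markers of a repeatability of at least 0.5, CML9 (r 0.42) and CML11 (r 0.27, adjusted permutation p = 0.00453) passed, and CML4 did not (r 0.13, adjusted permutation p = 0.171). CML11 also passed without the lines with an array standing apart (r 0.23, adjusted permutation p = 0.0325).

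**Figure D4:**
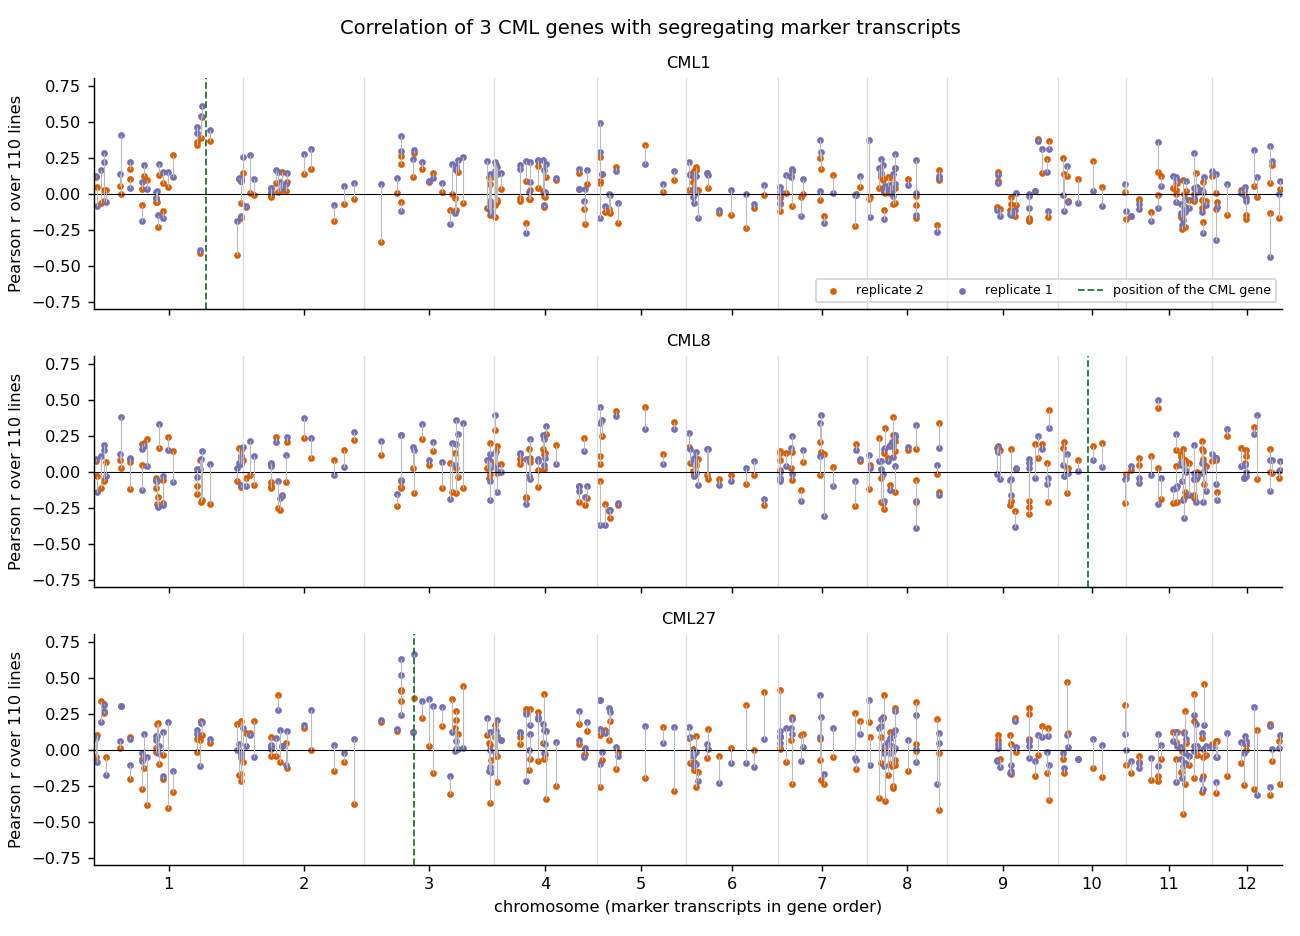
Pearson r over 110 lines (vertical axis) between CML1, CML8 or CML27 and each of the 249 marker transcripts, placed by gene order along chromosomes 1 to 12 (horizontal axis), in replicate 2 and replicate 1, with a grey line joining both values of a marker and a dashed line at the position of the CML gene. CML1 has markers beside it with an r of 0.53 in replicate 2 and 0.61 in replicate 1, CML27 has 1 beside it with 0.36 and 0.66, and CML8 has none of its strongest markers on its own chromosome.

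For each gene, the 5 named genes most like it over the lines in replicate 1 were set against replicate 2, again by permutation and adjusted over the 35 values. In replicate 2, 24 of the 35 passed with the same sign, 2 passed with the opposite sign and 9 did not pass. How many would pass for other probe sets was not computed. In replicate 1 every member followed the main axis (r 0.52 to 0.86), as did many probe sets. MOCS2A, ACR2.1 and OsTrx10 were picked for both CML9 and CML29, and RIC1 for both CML4 and CML11. The counts and the named genes are therefore not read as particular to a member. CML8 kept all 5. They were OsSAPK3 and OsSAPK6, of the SnRK2 kinase family of abscisic acid and osmotic signalling (r 0.53 and 0.60 in replicate 2, 0.81 and 0.76 in replicate 1), the homeobox gene OSH45 (0.61 and 0.79), the lipid transfer protein gene LTP2-B (0.50 and 0.79) and the vacuolar aquaporin gene OsTIP4;1 (0.34 and 0.78). OsSAPK3 lies on chromosome 10, as CML8 does. CML9 also kept all 5, among them the arsenate reductase gene ACR2.1 (0.68 and 0.80), the thioredoxin gene OsTrx10 (0.65 and 0.79) and P5CS1, of proline synthesis (-0.36 and -0.81).

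CML29 was most like MOCS2A, of molybdenum cofactor synthesis (0.76 in replicate 2 and 0.86 in replicate 1). It also kept the mini zinc finger gene MIF3 (0.73 and 0.85) and BLE3 (0.52 and 0.84). ACR2.1 and OsTrx10, each at 0.85 with CML29 in replicate 1, were at 0.04 and 0.02 in replicate 2 and did not pass. CML27 was related to the response regulator gene OsRR6 (0.77 and 0.68), inversely to AtMAP70-2, named for a microtubule-associated protein (-0.85 and -0.70), and to the small heat shock gene HSP17.7 (0.32 and 0.74). CML11 was inversely related to TPP2 (-0.66 and -0.82), and CML4 was related to the autophagy gene APG8C (0.44 and 0.83). The genes most like CML11 and CML4 in replicate 1 did not pass: AAP-S (0.17 and -0.83) for CML11 and DI19-5 (-0.07 and 0.83) for CML4. The sign turned for CML11 with the brassinosteroid response factor gene BZR1 (-0.31 in replicate 2 and 0.82 in replicate 1) and for CML27 with OsSAP9 (-0.44 and 0.70). CML1 kept FTSH4 (-0.29 and -0.77) and NMCP1 (-0.26 and -0.76), while ziga1, the most like it in replicate 1 at -0.80, was at -0.08 in replicate 2 (adjusted permutation p = 0.481).

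The rest of the calcium signalling genes were matched by name from lists chosen with earlier results known. Of 82 such genes, 67 were tested. Between the parents, 5 were called higher and 2 lower in Minghui 63 in limma's fit over all probe sets (10.4% of those tested, beside 10.5% of all probe sets). The kinase genes CPK24 (10.20 ± 0.25 in Minghui 63 and 9.0 ± 0.21 in Zhenshan 97, SD, n = 3 each; difference 1.2, SE 0.19, limma adjusted p = 0.00826), CPK13 (0.91, SE 0.20) and CPK5 (0.76, SE 0.15) were higher. So were CAX2, a cation exchanger gene of the vacuole (0.84, SE 0.15), and CIPK18 (0.62, SE 0.16). CIPK14 was lower (7.43 ± 0.59 and 9.14 ± 0.35; difference -1.71, SE 0.32, limma adjusted p = 0.017), as was CIPK7 (-0.73, SE 0.15). CIPK14 thus differed by about as much as CML1 and CML8 and in the same direction.

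No calmodulin, CBL gene or other CML gene was called between the parents, beside 10.5% of all tested probe sets. The classes are small, and the other CML genes are those left after the members had been picked partly by this contrast. Nothing is therefore read from the lack of calls. The 3 calmodulins ran from -0.14 (CAM1, SE 0.13) to 0.27 (CAM2, SE 0.18), so that CAM2 differed by 0.27 beside its neighbour CML9 at 0.93. The 12 other CML genes ran from -0.33 (CML17, SE 0.20) to 1.52 (CML31, SE 0.98), and the 5 CBL genes from -0.04 (CBL10, SE 0.14) to 0.19 (CBL3, SE 0.22). CIPK32 was the highest CIPK gene (0.65), CPK23 the lowest calcium-dependent kinase gene (-0.08) and ACA5 the lowest pump or exchanger gene (-0.43). CCAMK, the only gene of its class, was at 0.37, and the channel genes GLR3.1 and TPC1 were at 0.14 and 0.18. None of these 6 was called. The median of the 67 was 0.27 and that of all tested probe sets 0.04.

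Over the lines, 4 of the 67 were called, 5.97% beside 16.0% of all probe sets: CIPK25 (repeatability 0.37), CIPK17 (0.35), CIPK14 (0.29) and CPK9 (0.27). Between replicate numbers, 19 of the 67 were called higher and 47 lower in replicate 2, beside 43.7% and 48.5% of all tested probe sets. Their median shift was -0.35, beside -0.05 for all. Of the 67, 20 (29.9%) had a shift above 0, beside 47.6% of all tested probe sets. Once the arrays had been centred it was 18, beside 41.1% of all. The kinases were mostly lower (13 of 15 calcium-dependent kinases and 14 of 21 CIPK genes), whereas 8 of 12 other CML genes were higher. Of these, CML16, CML14 and CML15 shifted by 1.55 (SE 0.087), 1.5 (SE 0.11) and 1.24 (SE 0.083); CML16, for example, averaged 10.43 in replicate 2 and 8.88 in replicate 1. The kinase genes CIPK16, CIPK25 and CIPK6 also shifted upward by at least 1 (1.25, 1.08 and 1.04), so such a shift was not particular to CML genes. These 6 genes are named for an upward shift of at least 1, a choice made after their values were seen. No other tested calcium gene shifted upward by as much as CML27 or CML29.

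**Figure D5:**
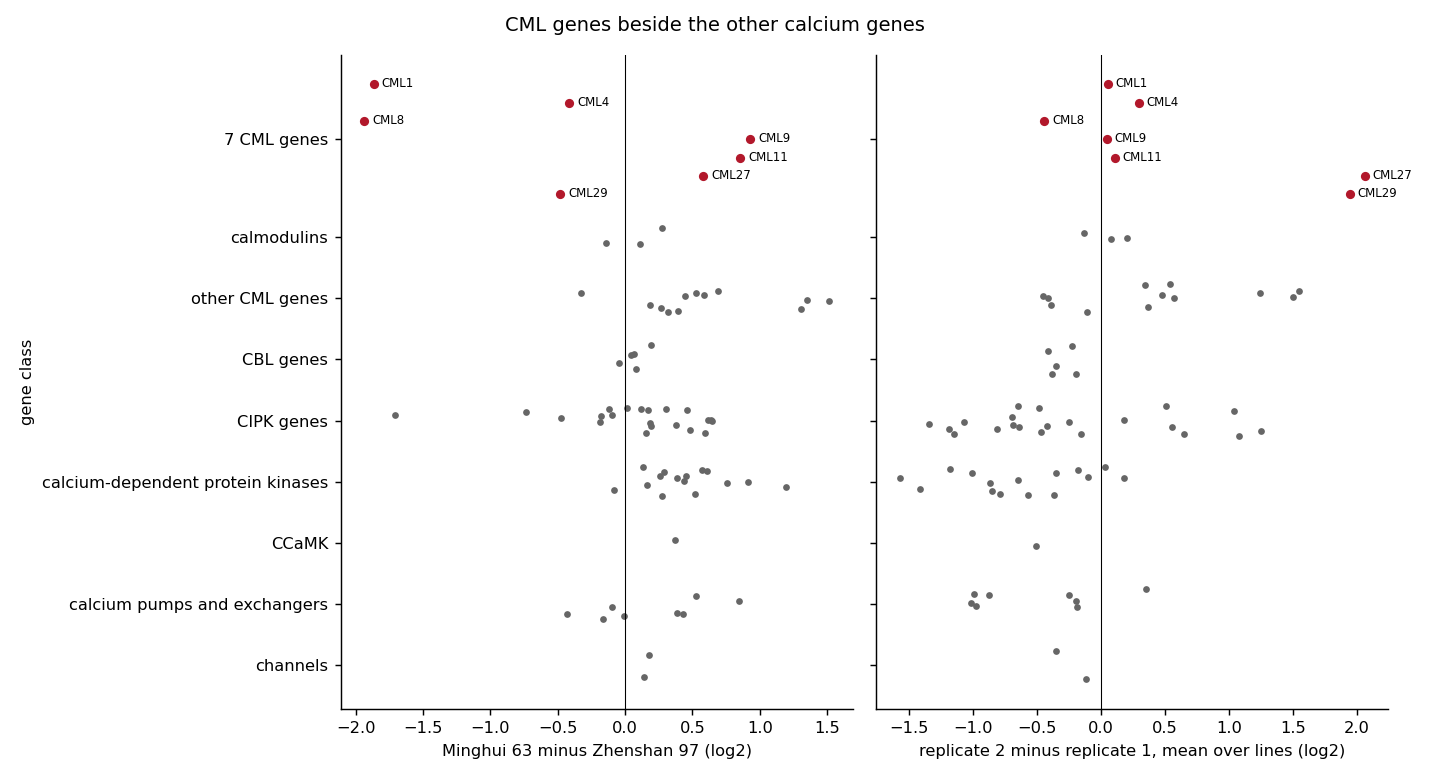
Difference between Minghui 63 and Zhenshan 97 (left, log2) and mean shift of the lines between replicate 2 and replicate 1 (right, log2) for the 7 genes (red, brightest probe set) and the 67 other tested calcium genes (grey), by gene class down the page. On the left, CML1 and CML8 lie near CIPK14 at the low end; on the right, CML27 and CML29 lie above CML16, the highest of the others at 1.55.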

How the data were processed

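The deposited values, 1 per probe set and array, are on the log2 scale; RMA and affy are named per the submitters' processing notes, with no version or setting in the sources used here. They were used as deposited. All 226 columns matched a sample. Control probe sets and those with a mean under 5 were left out of the tests. Gene names came from the platform annotation and the reference gene list of assembly ASM3414082v1, which also gave chromosome and gene order; of all probe sets, 22436 had 1 gene, 95 several and 34850 none listed.

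limma 3.58.1 (lmFit and eBayes in R 4.3.3; tables read by data.table, release 1.17.8) compared 3 with 3 parental arrays, tested the 110 line means with replicate number as a block, and tested the 110 paired differences between replicates; p-values were adjusted over all tested probe sets. Procedures were tested on simulated data. Permutation tests and correlations used Python 3.11.15 (numpy 2.4.6, pandas 2.3.3, scipy 1.17.1, figures with matplotlib 3.10.9), with the brightest probe set of each gene. An array stood apart where its median correlation lay over 5 MADs below the rest of its replicate number. The text names the members, each one's marker transcript, its 5 most alike named genes, and the called and extreme genes of each calcium class. Members and lists were chosen with earlier results of these data known. No calmodulin-binding transcription factor or glutamate decarboxylase was matched by name. Arrays per parent (3) and per line (2) limit the precision. Replicate numbers were not used to pair the parental arrays in the main fit. Their same-numbered deviations were negatively correlated, and whether same-numbered arrays were handled together is not given in the sources used here.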

Additional observations from a re-analysis of the deposited data

How the results depend on the processing

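The number of probe sets called between the parents was 2917. It was 934 with a replicate block, 1393 with all 226 arrays in the fit, 1164 to 3146 with 1 parental array left out, and 5787 without replicate 3 of both parents, an alternative chosen after seeing the data. Line variation was called for 4430 probe sets, for 2462 at a mean of at least 7 (fewer tested) and for 1668 with no replicate block. The replicate shift was called for 25582, for 13793 at a mean of at least 7 and for 51969 with no filter. Repeatability without the block was 0.088 for CML8, 0.13 for the first and -0.071 for the second bright CML4 probe set, -0.62 for CML27 and -0.66 for CML29, since the shift between replicates then counts as spread within lines. The shifts of CML1, CML9 and CML11 turned to -0.075, -0.084 and -0.020 with centred arrays, and those of CML1 and CML9 to -0.031 and -0.051 without the lines with an array standing apart. Of the 21 pairs, 7 co-varied in both replicates. It was 4 with second probe sets, 3 of them among the 7. There CML4 with CML1, CML9 and CML11 was lost in replicate 2, and CML27 with CML29 in replicate 1. The second probe set of CML27 is near background, while that of CML4 is bright. The count was 2 without the main axis (CML9 with CML11 being among the 7), where CML27 and CML29 in replicate 1 had an r of -0.10. The marker test passed for 4 genes, for 2 when chosen in replicate 2 (the cause was not tested), and for 6 with markers of a repeatability of at least 0.5. The alternatives without the main axis, without 1 line of each of the 11 near-identical pairs, and for the correlations those without lines standing apart, were also chosen after seeing the data. The other 26 alternative counts stayed within 1.5 times. Among values of single genes, 263 kept their direction and side of the threshold or stayed within the spread, 17 fell below the threshold, 7 rose above it and 8 moved further. Line variation cannot be computed without replicate 1 or replicate 2. The probe sets of CML4 and CML27 at the level of the empty controls set the limit of signal over background.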
